A study of Mus musculus with 7 samples.

Results

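Trp53 and 8 genes that p53 is known to switch on (Cdkn1a, Mdm2, Ccng1, Phlda3, Eda2r, Zmat3, Trp53inp1 and Sesn2) were followed in tumor cells and in the host cells of the same tumors. The 9 genes were chosen by symbol from the 33696 genes of the feature list, and all 9 were found there. The tumors were allografts of JW23.3, a mouse MPNST (malignant peripheral nerve sheath tumor) line with mutant Nf1 and Trp53, and all 7 tumors came from this 1 line. The hosts were wildtype female C57/B6 mice aged 5 to 6 weeks, with JW23.3 cells injected under the skin of the flank. The irradiated group had 4 tumors that received 2 Gy on each of 5 days, behind lead shields that left only the tumor exposed, and the control group had 3 tumors with no radiation. Randomization took place on day 7 and harvest on day 21. Each tumor gave 1 droplet library of single cells, so the tumor was the replicate.

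p53 is a transcription factor that is held at a low level by MDM2 and accumulates after DNA damage. It then binds response elements near its target genes and raises their transcription, which can halt the cell cycle, start apoptosis or shut off p53 itself through MDM2. Ionizing radiation is a classic trigger of this response in cells with functional p53. JW23.3 cells carry a mutant Trp53 whereas the host cells are wildtype, so each library held both genotypes side by side. All mutant cells were tumor cells of a male line, and all wildtype cells were other cell types of female hosts. Genotype, cell type and sex therefore cannot be told apart in the comparisons of tumor with host cells.

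The members differ in what they do. Cdkn1a encodes p21, an inhibitor of cyclin-dependent kinases, and Mdm2 encodes the ubiquitin ligase that targets p53 for degradation. Ccng1 encodes cyclin G1, Phlda3 a repressor of AKT signaling, Eda2r a receptor of the TNF receptor family, Zmat3 an RNA-binding zinc finger protein, Trp53inp1 a nuclear stress protein and Sesn2 a sestrin that restrains mTORC1. On GRCm38 (GENCODE M21), Trp53 spans bases 69580359 to 69591873 of chromosome 11 and Cdkn1a spans bases 29090976 to 29100727 of chromosome 17, both on the plus strand. Mdm2 lies on the minus strand of chromosome 10 (117688875 to 117710758), Ccng1 on the minus strand of chromosome 11 (40748552 to 40755311) and Phlda3 on the plus strand of chromosome 1 (135766119 to 135769136). Eda2r lies on the minus strand of chromosome X (97333840 to 97377216) and Zmat3 on the minus strand of chromosome 3 (32334792 to 32366014). Trp53inp1 (11156431 to 11174379, plus strand) and Sesn2 (132492032 to 132510501, minus strand) are both on chromosome 4.

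Letters that match the p53 half-site were found in some of the promoters. RefSeq promoter windows of GRCm38.p6, 300 bases long with 250 before and 50 after each start, matched 7 of the 9 members with 8 windows. They were searched for the p53 half-site, a palindrome of 10 bases that reads the same on both strands. A half-site was present in 8.36% of all 32851 windows, and a pair of half-sites with 0 to 13 bases between them in 0.0731%. The first Cdkn1a window held such a pair, 12 bases apart. Trp53, Mdm2 and Ccng1 held 1 half-site each, and the second Cdkn1a window and those of Phlda3, Eda2r and Sesn2 held none. The stretches below are shown because they carry these matches, with each half-site in capitals. Only exact matches are in capitals, so a near-match, as in the 10 bases right after the second Cdkn1a half-site, is in lower case. They lie at chr17:29090869-29090968 (Cdkn1a, plus strand), chr11:69580249-69580348 (Trp53, plus strand), chr10:117710890-117710989 (Mdm2, minus strand) and chr11:40755417-40755516 (Ccng1, minus strand).
Cdkn1a: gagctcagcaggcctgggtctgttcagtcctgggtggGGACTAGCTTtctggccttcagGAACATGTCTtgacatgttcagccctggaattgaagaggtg
Trp53: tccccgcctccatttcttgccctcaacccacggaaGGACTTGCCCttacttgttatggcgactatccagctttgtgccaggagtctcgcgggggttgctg
Mdm2: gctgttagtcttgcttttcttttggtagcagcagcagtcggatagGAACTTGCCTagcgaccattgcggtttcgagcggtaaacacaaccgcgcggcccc
Ccng1: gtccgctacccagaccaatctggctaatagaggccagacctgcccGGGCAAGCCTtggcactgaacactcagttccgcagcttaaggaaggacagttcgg
These matches describe letters in a short window, and p53 binding was not measured.

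The 7 libraries held 39537 cells and 646559899 UMIs (unique molecular identifiers, each counting 1 captured transcript), and 34296 cells passed the quality filter. Marker gates assigned 15283 cells to tumor, 11557 to macrophage, 1447 to T/NK and 442 to endothelial cells, while 5567 met no gate. The median cell held 22836 UMIs in tumor, 6727 in macrophage, 3205 in T/NK and 6555.5 in endothelial cells. The gate for tumor cells, a male line in female hosts, required 0 UMIs of Xist, and Xist was found in 90.5% of macrophage, 89.9% of T/NK and 91.6% of endothelial cells. Any 2 libraries shared 3 to 19 cell barcodes, 190 barcodes in all.

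The libraries also differed in their number of cells. Those labelled irradiated 1, control 2 and control 3 held 7308, 8452 and 7291 cells with medians of 6058.5 to 9507 UMIs per cell. Those labelled irradiated 2, 3 and 4 and control 1 held 2859, 3780, 3713 and 6134 cells with medians of 9990 to 17930.5 UMIs. These are called the 3 larger and the 4 smaller libraries here, by cell number, with a line at 7000 cells drawn when the values were known. Cell number by itself does not single out that line, so counts of members that part along it are descriptions. Total UMIs do not follow that line, since control 1 had the most of all (153044123) and the larger libraries had 87062522 to 112614575. The cell number of control 1 also lies nearer to the larger libraries than to the other smaller ones. The division crosses the labelled groups. In host cells, several p53 targets followed this division rather than the labels, as described below. In those genes the library labelled control 1 lay with irradiated 2 to 4, and the library labelled irradiated 1 lay with controls 2 and 3. With the labels of these 2 libraries exchanged, the division would be irradiated against control. Whether they were exchanged was not tested, and no measure used here gives the treatment independently of the labels, so every irradiated-control value below holds only for the labels as given. The labels were kept throughout, and values without these 2 libraries are given beside the results that rest on them.

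The first question was how Trp53 and its targets were expressed in mutant tumor cells and in wildtype host cells. UMI counts were summed per class and library and are given as CPM, the UMIs of a gene scaled to the same total in every sum. Trp53 was highest in tumor cells, at 153.7, 153.4 and 174.7 CPM in controls 1 to 3 and 159.8, 167.8, 172.8 and 202.4 CPM in irradiated 1 to 4. Endothelial cells followed with 110.8 to 150.4 CPM, T/NK cells with 80.0 to 110.2 CPM and macrophages with 61.1 to 72.4 CPM. The ranges of these 4 classes did not overlap, and tumor cells were above each host class in all 7 libraries. Transcripts of Trp53 were thus abundant in the mutant cells. The count is of 3' tags, and the exact Trp53 allele of JW23.3 is not given in the sources used here, so the level checks neither the allele nor the protein.

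For Cdkn1a the ends of this order were exchanged, with macrophages highest and tumor cells lowest by mean. Endothelial cells were again above T/NK cells. Macrophages held 481.2, 186.3 and 215.1 CPM in controls 1 to 3 and 186.3, 465.6, 406.2 and 409.5 CPM in irradiated 1 to 4. Endothelial cells held 273.4, 83.0 and 86.6 CPM in the controls and 93.8, 234.4, 213.9 and 218.9 CPM in the irradiated libraries. T/NK cells held 121.9, 43.8 and 59.5 CPM and then 47.4, 121.4, 73.0 and 82.2 CPM. Tumor cells held 10.9, 10.8 and 14.0 CPM in the controls and 10.1, 14.8, 10.2 and 7.95 CPM in the irradiated libraries. Every tumor value lay below every host value, while the ranges of macrophages and endothelial cells overlapped, as did those of endothelial and T/NK cells.

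Cells of the classes differ in depth, so shares of cells with at least 1 UMI were also taken after thinning each cell to 2000 UMIs. Cdkn1a was then found in 38.6% of 10559 macrophages (95% Wilson interval 37.7 to 39.6), 21.4% of 393 endothelial cells (17.6 to 25.7), 10.2% of 1090 T/NK cells (8.53 to 12.1) and 2.08% of 14977 tumor cells (1.86 to 2.32). Cells below 2000 UMIs were left out (998 macrophages, 49 endothelial, 357 T/NK and 306 tumor cells). Without thinning the shares were 64.1%, 43.2%, 16.3% and 15.3%. The intervals cover counting error only, over cells pooled from the 7 libraries. By library the thinned macrophage share was 26.9 to 31.9% or 47.0 to 53.4%, so the pooled macrophage interval holds no single library. As a measure of transcripts carried over between droplets, the summed macrophage markers in tumor cells stood at 0.202 to 0.430% of their level in macrophages of the same library. Cdkn1a in tumor cells stood at 1.94 to 6.52% of its macrophage level, above that carry-over in each library.

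**Figure D1:**
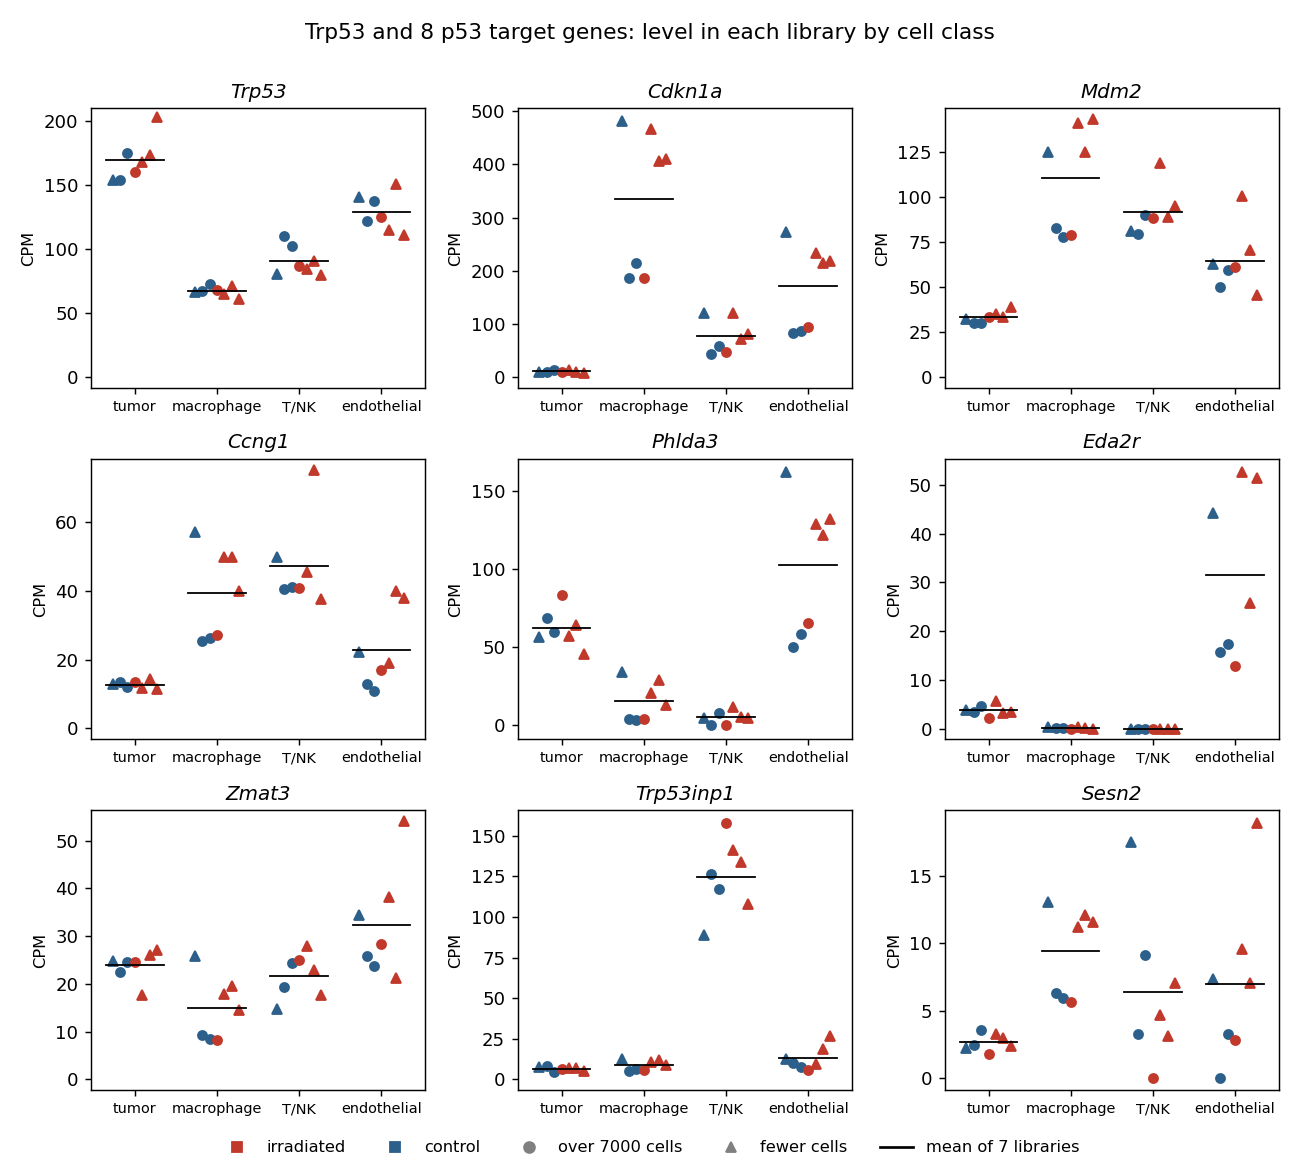
Level of each member in CPM (linear axis from 0) in tumor, macrophage, T/NK and endothelial cells, with 1 point per library (red: labelled irradiated, blue: labelled control, circles: the 3 libraries with over 7000 cells, triangles: the 4 others) and a line at the mean of the 7 libraries. Trp53 is highest in tumor cells, Cdkn1a is highest in macrophages and at 7.95 to 14.8 CPM in tumor cells, and in macrophages the triangles of 7 members lie above all circles.

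The other members fell into several patterns. Mdm2 and Ccng1 were lowest in tumor cells, at 30.1 to 38.9 CPM and 11.6 to 14.4 CPM. Mdm2 reached 77.8 to 143.5 CPM in macrophages, 79.4 to 119.1 CPM in T/NK cells and 45.9 to 100.4 CPM in endothelial cells. Ccng1 was at 25.5 to 57.3 CPM in macrophages, 37.5 to 75.1 CPM in T/NK cells and 10.8 to 40.0 CPM in endothelial cells, and the last range overlapped that of tumor cells. Sesn2 was scarce everywhere, with 1.76 to 3.60 CPM in tumor cells against 5.63 to 13.1 CPM in macrophages. Its ranges in T/NK (0 to 17.5 CPM) and endothelial cells (0 to 18.9 CPM) overlapped the tumor range.

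Trp53inp1 stood out in T/NK cells, at 88.6 to 157.9 CPM. The other classes had 4.79 to 8.11 CPM (tumor), 5.51 to 12.4 CPM (macrophage) and 5.69 to 27.0 CPM (endothelial), ranges that overlap. Phlda3 was at 45.6 to 83.5 CPM in tumor and 50.1 to 162.5 CPM in endothelial cells, and lower in macrophages (2.89 to 34.1 CPM) and T/NK cells (0 to 11.7 CPM). Eda2r was mostly endothelial, at 12.8 to 52.6 CPM, with 2.07 to 5.64 CPM in tumor cells. It was nearly absent from macrophages, with 13 UMIs in all, and had 0 UMIs in 1447 T/NK cells, which allows a share of up to 0.207% of cells with a UMI. Zmat3 had overlapping ranges between neighboring classes, at means of 32.3 CPM in endothelial, 23.9 in tumor, 21.8 in T/NK and 14.9 CPM in macrophage cells.

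Differences between tumor and host cells were tested with edgeR's quasi-likelihood test on the summed counts, with the library as a term and Benjamini-Hochberg adjustment over 14549 genes. Against macrophages, 8 of 9 members passed an adjusted p of 0.05, where 82.1% of all genes tested did. Against T/NK cells 8 of 9 passed (75.8% of all genes) and against endothelial cells 6 of 9 (59.6%). The number of members called was therefore close to the background, and the direction and size of each difference carry the information. Fold changes below are on the scale of trimmed-mean (TMM) normalization, in which the median of all genes was 0.10 against macrophages, 0.27 against T/NK and 0.16 against endothelial cells on the log2 scale. Scaling by total UMIs alone moved the first of these to 0.48 and the calls against macrophages from 43.6% higher and 38.5% lower to 55.0% higher and 29.6% lower.

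Cdkn1a was 34.8-fold lower in tumor cells than in macrophages (log2 fold change -5.12 ± 0.23 SE, adjusted p = 5.17e-16). It was 12.5-fold lower than in endothelial cells (-3.65 ± 0.23, adjusted p = 1.67e-12) and 6.26-fold lower than in T/NK cells (-2.65 ± 0.23, adjusted p = 2.6e-10), lower in 7 of 7 libraries each time. Without the libraries labelled irradiated 1 and control 1 the 3 differences were -4.96, -3.46 and -2.52. Cdkn1a was thus the member with the largest deficit in tumor cells against macrophages and endothelial cells.

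Mdm2 was 4.24-fold lower in tumor cells than in macrophages, 2.69-fold lower than in T/NK cells and 1.78-fold lower than in endothelial cells, in 7 of 7 libraries each (log2 -2.08 ± 0.11, -1.43 ± 0.12 and -0.83 ± 0.13, adjusted p = 5.11e-16, 2.06e-11 and 4.72e-06). Ccng1 was 3.84-fold, 3.51-fold and 1.52-fold lower in the same order, and the last of these (adjusted p = 0.0268, lower in 5 of 7 libraries) was lost when irradiated 1, 2, 3 or 4 or control 1 was left out (log2 -0.33 to -0.58). Sesn2 was 4.35-fold lower than in macrophages (adjusted p = 1.16e-08) and 2.31-fold lower than in T/NK cells (adjusted p = 0.00993). The T/NK difference for Sesn2 fell to -0.58 on the log2 scale and lost its call without control 1. Against endothelial cells Sesn2 did not pass (-0.97 ± 0.51, adjusted p = 0.108).

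Trp53inp1 was 18.7-fold lower in tumor than in T/NK cells (-4.23 ± 0.18, adjusted p = 1.83e-17) and 1.73-fold lower than in macrophages (adjusted p = 9.81e-05). The difference from endothelial cells was of the same size (-0.79 ± 0.31, adjusted p = 0.0292) but was lost without irradiated 2, 3 or 4, control 1 or control 3. Once cycling cells were removed, Trp53inp1 differed by -0.21 from macrophages and -0.20 from endothelial cells, and neither passed.

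Other members were higher in tumor cells. Trp53 itself was 1.93-fold above macrophages, 1.90-fold above T/NK cells and 1.39-fold above endothelial cells (log2 0.95 ± 0.08, 0.93 ± 0.09 and 0.48 ± 0.09, adjusted p = 2.45e-11, 4.16e-10 and 5.26e-05). Phlda3 was 4.26-fold above macrophages (2.09 ± 0.40, adjusted p = 6.7e-05) and 15.7-fold above T/NK cells (3.97 ± 0.65, adjusted p = 1.32e-05), higher in 7 of 7 libraries in both cases. The macrophage fold joins unlike libraries, since tumor Phlda3 stood at 2013 to 2330% of the macrophage level in irradiated 1 and controls 2 and 3 and at 166 to 367% in the other 4 (log2 differences of 4.12 and 0.93 when fitted apart). Against endothelial cells its difference did not pass (-0.37, 95% interval -1.25 to 0.50). Eda2r was 22.0-fold above macrophages (4.46 ± 0.39, adjusted p = 5.53e-10), a ratio that rests on 13 macrophage UMIs. Since T/NK cells were at 0, Eda2r in tumor cells was at least 7.54-fold higher, taking 3 UMIs over the whole T/NK class as the floor. Eda2r was 7.18-fold lower in tumor than in endothelial cells (-2.84 ± 0.29, adjusted p = 3.02e-08).

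Zmat3 differed least. Its log2 differences were 0.37 ± 0.18 against macrophages (adjusted p = 0.0597), 0.21 ± 0.24 against T/NK and -0.27 ± 0.25 against endothelial cells (adjusted p = 0.42 and 0.364). The macrophage difference passed under scaling by total UMIs (0.76), with doublets removed (0.53) and without any 1 of irradiated 2, 3 or 4 or control 1 (0.52 to 0.69).

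**Figure D2:**
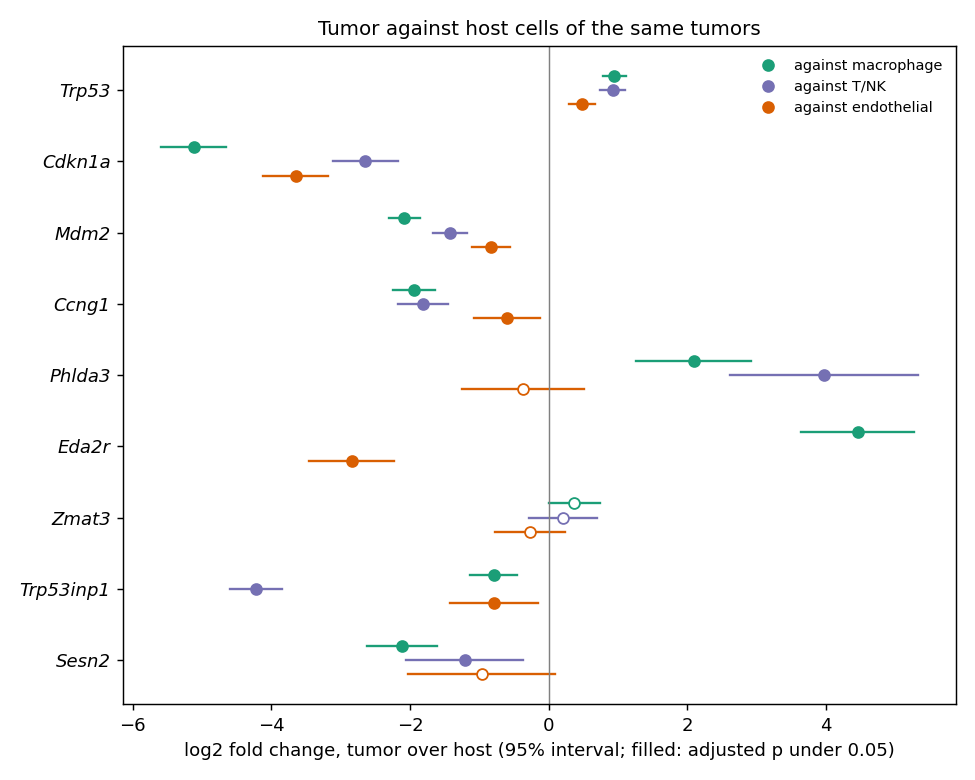
Log2 fold change of each member in tumor cells over macrophage, T/NK and endothelial cells of the same tumors (edgeR, 7 libraries, bars are 95% intervals, filled points passed an adjusted p of 0.05). Cdkn1a, Mdm2 and Ccng1 lie left of 0 in all 3 comparisons and Trp53 lies right of 0 in all 3. Eda2r against T/NK cells is not drawn because T/NK cells had 0 UMIs.

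A wider p53 list of 28 other targets was set beside the members. Against macrophages 7 of 27 tested were higher in tumor cells and 15 lower, against T/NK cells 3 higher and 17 lower, and against endothelial cells 4 higher and 17 lower. Of all genes tested, 43.6%, 43.7% and 33.6% were higher in these comparisons and 38.5%, 32.1% and 26% lower. The median log2 differences of the list were -0.66, -0.64 and -1.09. Under scaling by total UMIs, the counts against macrophages were 10 higher and 12 lower.

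Lower in all 3 comparisons were 11 of these targets, and Ak1 (adenylate kinase) was higher in all 3. The share of all genes with 1 sign in all 3 comparisons was not computed, so these counts have no background beside them. The 4 with the largest mean deficit were Gdf15, a secreted stress cytokine of the TGF-beta family, Pmaip1, which encodes the proapoptotic protein NOXA, Btg2, an antiproliferative gene, and Plk3, a polo-like kinase. Gdf15 had a mean of 96.5 CPM in macrophages and 0.503 CPM in tumor cells (log2 -7.96 ± 0.19). Pmaip1 had 102 CPM in T/NK and 44.7 CPM in macrophage cells against 8.67 CPM in tumor cells. Btg2 and Plk3 also belong to the immediate-early response, and Btg2 varied from 12.3 to 144.2 CPM among the tumor-cell sums. Ak1 had 15.4 CPM in tumor cells and at most a mean of 2.73 CPM in a host class.

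Among regulators of p53, Cdkn2a, whose ARF product inhibits MDM2, was at 19.5 CPM in tumor cells and 1.02 CPM in macrophages (log2 3.89 ± 0.23, adjusted p = 7.99e-15). Its level in tumor cells was also above that in T/NK (2.51 ± 0.34) and endothelial cells (3.07 ± 0.43). Counts are 3' tags per gene, so ARF transcripts were not told apart from others of Cdkn2a. Mdm4, the relative of Mdm2 that blocks p53 activity, was lower in tumor cells than in T/NK cells (-1.18 ± 0.10, adjusted p = 2.3e-11) and macrophages (-0.28 ± 0.09, adjusted p = 0.00752) and differed by 0.00 ± 0.11 from endothelial cells. The p53 relatives were scarce. Trp63 had a mean of 0.807 CPM in tumor cells, and Trp73 had 13 UMIs in all tumor cells.

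Over the 28 sums of class and library, the genes whose log2 level was most like that of Cdkn1a were Ms4a6d, Sgk3 and Rnf130 (Pearson r 0.963, 0.953 and 0.951). For Trp53 they were Pkd1, Ston1 and Trim2 (0.969, 0.961 and 0.959). These are descriptions over 9650 genes, in sums that share libraries and differ in class.

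The next comparison asked whether irradiated and control tumors differed at harvest. No member passed in any class, and with edgeR no gene passed at all, so 0% of genes were called in tumor, macrophage, T/NK and endothelial cells. At an unadjusted p under 0.05 there were 243 of 17412, 610 of 12889, 319 of 8129 and 319 of 8021 genes, and DESeq2 called 0, 1, 0 and 0. Of the 9 members, 9, 8, 6 and 7 passed the filter on low counts in these classes. Endothelial sums left out irradiated 2, which had 17 cells.

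In tumor cells the member with the smallest p was Mdm2. It had 32.3, 30.1 and 30.1 CPM in controls 1 to 3 and 33.4, 35.1, 33.6 and 38.9 CPM in irradiated 1 to 4. All 4 irradiated values lay above the 3 control values, which was true of 2.48% of genes in either direction. The edgeR difference was 0.13 ± 0.09 (adjusted p = 0.999). Within the 3 larger libraries the log2 ratio of irradiated to control was 0.15 and within the 4 smaller ones it was also 0.15. The 8 other members overlapped between the groups in tumor cells, with log2 differences from -0.21 (Cdkn1a, 95% interval -0.76 to 0.34) to 0.06 (Trp53, -0.23 to 0.34).

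In macrophages the smallest p was again that of Mdm2 (0.34 ± 0.24, edgeR adjusted p = 0.861). Cdkn1a differed by 0.30 with a 95% interval of -0.64 to 1.24, and Phlda3 by 0.24 with an interval of -1.96 to 2.44. Both intervals hold 0 and reach past 1 on the log2 scale. Within the larger libraries the log2 ratio of irradiated to control for Cdkn1a was -0.11, and within the smaller ones -0.17. In T/NK cells the smallest p belonged to Trp53 (-0.24 ± 0.17, edgeR adjusted p = 0.999) and in endothelial cells to Ccng1 (0.95 ± 0.43, adjusted p = 0.995). No member separated the groups in these 3 host classes, where 5.17% (macrophage), 5.72% (T/NK) and 9.49% (endothelial) of genes did. The Ccng1 value rests on 12 to 17 UMIs per irradiated library and 9 to 18 per control library.

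**Figure D3:**
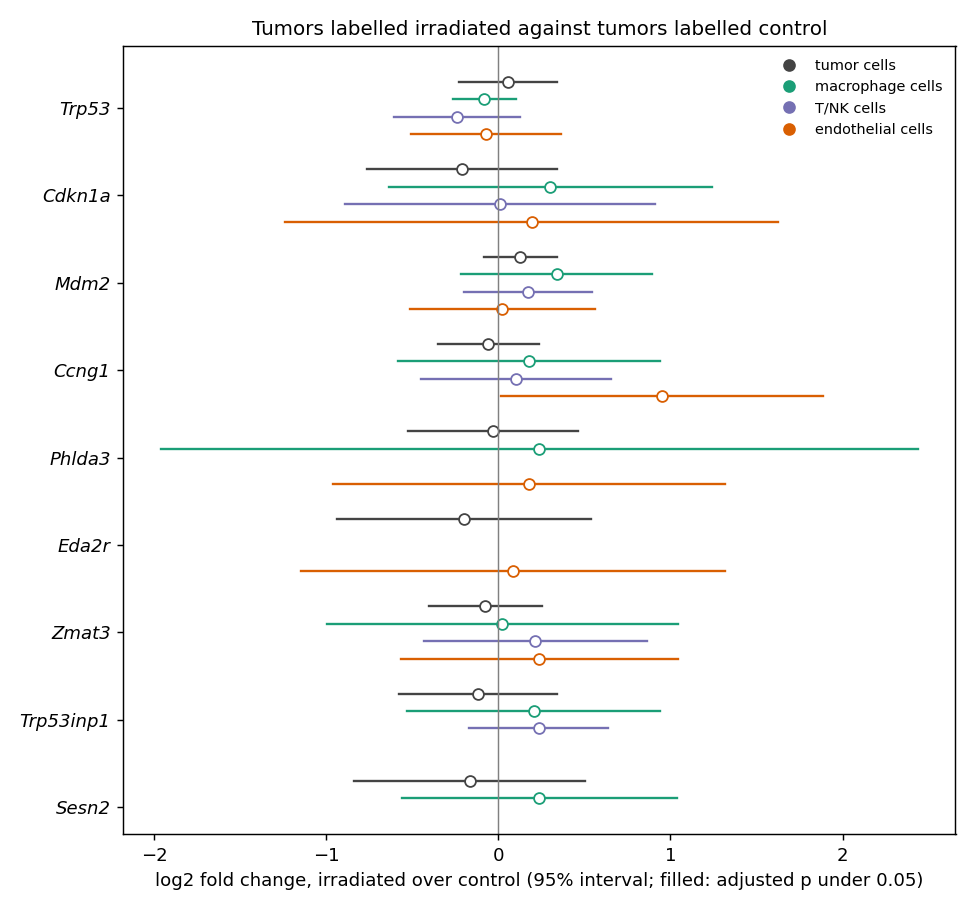
Log2 fold change of each member in tumors labelled irradiated over tumors labelled control, by cell class (edgeR, bars are 95% intervals, open points did not pass an adjusted p of 0.05, members below the count filter are not drawn). All points are open, and the intervals of tumor cells are narrower than those of macrophages for each target drawn in both classes.

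Whether the irradiated-control difference itself differed between tumor and host cells was tested as an interaction. No gene passed against macrophages, T/NK or endothelial cells in edgeR (528, 646 and 648 of 16196 genes at an unadjusted p under 0.05, with DESeq2 calling 0, 1 and 1), and no member did. The members with the smallest p were Cdkn1a against macrophages (-0.64 ± 0.37), Sesn2 against T/NK cells (1.23 ± 0.69) and Ccng1 against endothelial cells (-0.90 ± 0.43), each with an adjusted p of 1 from edgeR.

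The wide intervals in macrophages came with a division among the libraries. Phlda3 had 3.59 CPM in irradiated 1 and 3.40 and 2.89 CPM in controls 2 and 3, but 34.1 CPM in control 1 and 20.3, 28.8 and 12.4 CPM in irradiated 2 to 4. The lowest of the smaller libraries was 3.47-fold above the highest of the larger ones. Cdkn1a parted in the same way, at 186.3 to 215.1 CPM in the larger and 406.2 to 481.2 CPM in the smaller libraries, with no value between.

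Mdm2 (77.8 to 83.1 against 125.2 to 143.5 CPM), Ccng1 (25.5 to 27.1 against 40.1 to 57.3 CPM) and Zmat3 (8.28 to 9.23 against 14.6 to 25.9 CPM) followed. So did Trp53inp1 (5.51 to 6.19 against 8.88 to 12.4 CPM) and Sesn2 (5.63 to 6.32 against 11.2 to 13.1 CPM). In macrophages, 7 of the 8 members tested were higher in all 4 smaller libraries than in all 3 larger ones, where 16.3% of the 12889 genes tested were. The exception was Trp53, at 67.5 to 72.4 CPM in the larger and 61.1 to 71.4 CPM in the smaller libraries. The same 7 of 9 members parted when cycling macrophages or doublets were removed and under stricter gates. The removal of doublets could change little, since only 0.190% of the gated macrophages were marked as doublets. Counts of parted members, here and below, are descriptions and no test, since the line was drawn with the values known.

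In tumor cells of the same libraries 0 of 9 members parted, where 18.4% of 17412 genes were higher in all 4 smaller libraries, so a count of 0 among 9 is not far from that background. Other genes of the network did part in tumor cells. Of 27 other targets tested, Apaf1, Polk and Xpc were above and Bax, Bbc3, Siva1 and Triap1 below, and of 10 regulators Cdkn2a and Atm were above. Cdkn1a in tumor cells was at 10.1 to 14.0 CPM in the larger and 7.95 to 14.8 CPM in the smaller libraries. Endothelial cells parted for Cdkn1a (83.0 to 93.8 against 213.9 to 273.4 CPM), Phlda3 (50.1 to 65.4 against 122.2 to 162.5 CPM), Eda2r (12.8 to 17.3 against 25.9 to 52.6 CPM) and Ccng1 (10.8 to 17.1 against 19.1 to 40.0 CPM). These were 4 of 7 members tested, against 4.34% of 8021 genes, and irradiated 2 gave only 17 endothelial cells to these sums. T/NK cells parted for Cdkn1a alone of 6 members tested (43.8 to 59.5 against 73.0 to 121.9 CPM, with 8.03% of 8129 genes), and under stricter gates this was lost. No member was lower in all 4 smaller libraries in any class, where 4.94% of genes were in tumor, 9.12% in macrophage, 4.71% in T/NK and 2.95% in endothelial cells. Sesn2 in endothelial cells (0 to 3.25 against 7.05 to 18.9 CPM) was below the count filter. The difference between tumor and host cells in this respect was not tested. The division differs from the labels by the 2 libraries named above.

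**Figure D4:**
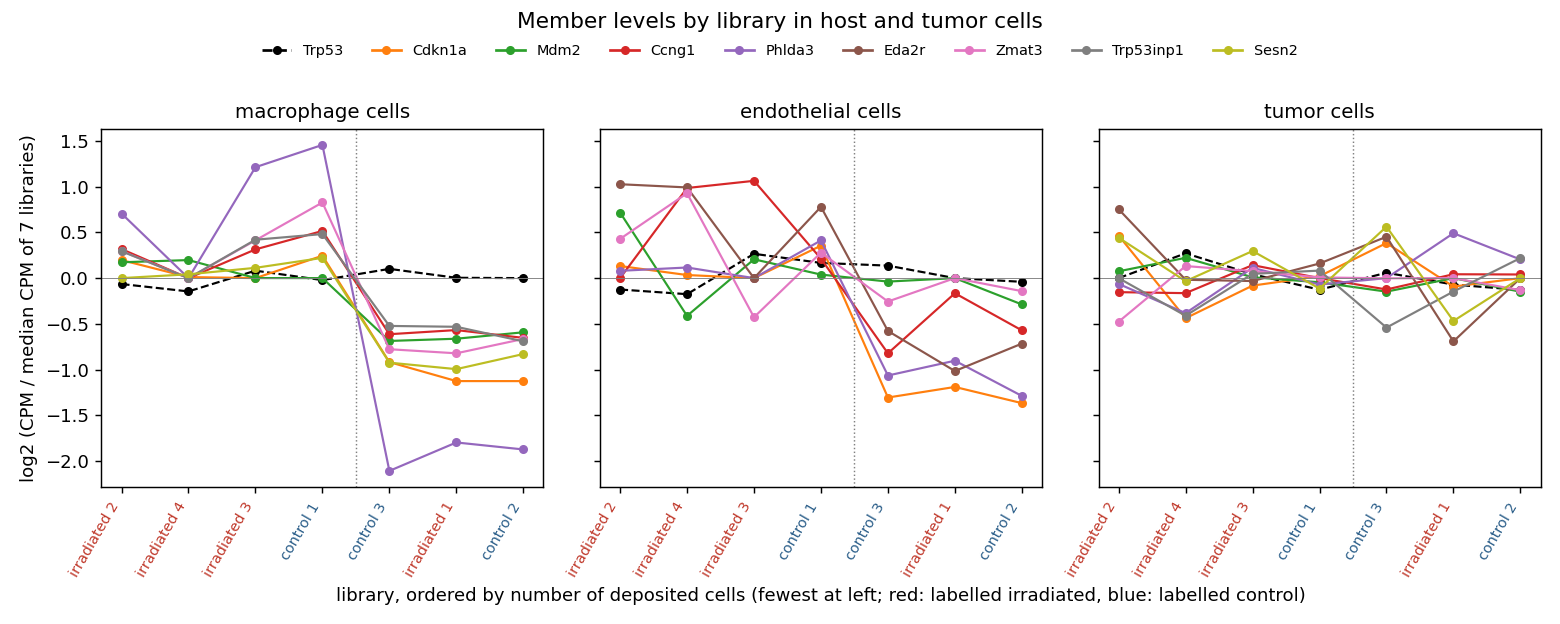
Level of each member in each library relative to its median over the 7 libraries (log2 scale), in macrophage, endothelial and tumor cells, with libraries ordered by their number of cells and a dotted line between the 4 smaller and the 3 larger ones. In macrophages 7 members drop from control 1 to control 3 across the dotted line while Trp53 (dashed) does not, and in tumor cells no member parts there. Eda2r in macrophages and Trp53inp1 and Sesn2 in endothelial cells are left out for their low counts.

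Depth moved with this division in macrophages, tumor cells and T/NK cells. The median macrophage held 4131 to 5988 UMIs in the larger and 10177.5 to 12174 UMIs in the smaller libraries. Tumor cells held 14315 to 22644.5 against 27204 to 31080 UMIs, and T/NK cells 1891 to 2641 against 4316 to 5366.5 UMIs. In endothelial cells the medians overlapped (4188.5 to 8422.5 against 8292.5 to 13105.5 UMIs). When each macrophage was thinned to 2000 UMIs, Cdkn1a was found in 26.9 to 31.9% of cells in the larger and 47.0 to 53.4% in the smaller libraries, and Phlda3 in 0.480 to 0.818% against 1.66 to 7.00%. Trp53 overlapped, at 10.1 to 12.6% against 10.5 to 12.2%. The share of cycling macrophages was 12.1 to 12.8% in the larger and 18.5 to 20.9% in the smaller libraries. This share was taken without thinning. It needs UMIs of at least 2 proliferation genes per cell, so it is not matched for depth. The summed immediate-early genes of macrophages, which rise with dissociation stress, overlapped (7841 to 9961 against 6871 to 8947 CPM), whereas in endothelial cells they were lower in the smaller libraries (5071 to 6495 against 6602 to 8622 CPM). The parts of depth, cell number, handling and an exchange of the 2 labels in the division were not tested, and with the last of these treatment and the other differences cannot be told apart.

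Of 25 other p53 targets tested in macrophages, 5 were also above in all 4 smaller libraries and 4 below, shares close to those of all genes for the first (16.3%) and somewhat over them for the second (9.12%). Those above were Bax and Bbc3, both proapoptotic members of the BCL2 family, the nuclease Aen, the polymerase Polk and the thiamine transporter Slc19a2. Those below were Btg2, Plk3, Sesn1 and Triap1. Bax, for example, had 165.6 to 185.2 CPM in the larger and 222.1 to 246.7 CPM in the smaller libraries, whereas in tumor cells Bax and Bbc3 were below and Polk above. In T/NK cells 2 of 18 other targets were above and 2 below, and in endothelial cells 1 of 20 was above and 0 below.

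Leaving out the libraries labelled irradiated 1 and control 1 changed the irradiated-control comparison in macrophages. In the comparisons of tumor with host cells, 9, 7 and 5 members passed without them, with Zmat3 gained against macrophages (0.58), Sesn2 lost against T/NK cells (-0.73) and Ccng1 lost against endothelial cells (-0.57). Since these 2 were picked for the very levels described above, the values are a description and not evidence of a radiation effect. Without them Cdkn1a differed by 1.04, Phlda3 by 2.65, Zmat3 by 0.91, Sesn2 by 0.88, Ccng1 by 0.80 and Mdm2 by 0.72 on the log2 scale, and these 6 of 8 members passed in edgeR, as did 1.19% of all genes. Trp53 then differed by -0.14. In tumor cells no member passed and Cdkn1a differed by -0.33. The 3 irradiated libraries that remain are all smaller ones and the 2 controls are both larger ones, so treatment and the division by cell number cannot be told apart in this comparison.

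The last comparison set cycling cells, with UMIs for at least 2 of 12 proliferation genes, beside the other cells of their class. In tumor cells 5387 of 15283 cells were cycling, and 8 of 9 members passed in edgeR with the library as a term, where 74.8% of 15696 genes did. Eda2r was 2.79-fold higher in cycling tumor cells (95% interval of the log2 difference 1.15 to 1.81, adjusted p = 1.02e-06) and Trp53 1.49-fold higher (0.58 ± 0.07, adjusted p = 3.99e-06). Zmat3, Sesn2 and Ccng1 were higher by 0.41, 0.40 and 0.30, and Sesn2 lost its call without control 3 (0.28). Trp53inp1 was 2.89-fold lower (-1.53 ± 0.11, adjusted p = 3.52e-08), and Phlda3 and Mdm2 were lower by 0.44 and 0.14 on the log2 scale (-0.44 ± 0.05 and -0.14 ± 0.05). Cdkn1a, whose product halts the cycle, did not pass in tumor cells (0.23 ± 0.11, adjusted p = 0.0814).

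Macrophages had 1773 cycling cells of 11557. There 5 of 8 members tested passed (50.5% of 11640 genes). Trp53 was higher in cycling cells (0.48 ± 0.06, adjusted p = 1.71e-06). Cdkn1a was lower (-0.37 ± 0.09, adjusted p = 0.0104), as were Phlda3 (-0.84 ± 0.17), Zmat3 (-0.58 ± 0.13) and Trp53inp1 (-0.57 ± 0.12), with adjusted p = 0.000884, 0.000984 and 0.000556. Mdm2, Ccng1 and Sesn2 did not pass. Without the libraries labelled irradiated 1 and control 1, Cdkn1a was at -0.36 and no longer passed (adjusted p = 0.063). In the larger libraries alone its value was -0.10, Phlda3 reversed to 0.21, Zmat3 was at -0.24 and Trp53inp1 at -0.35, and Trp53 was the 1 member that passed.

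Zmat3 was thus higher in cycling tumor cells and lower in cycling macrophages. Neither this contrast nor that of Cdkn1a between tumor cells and macrophages was tested as an interaction. Cycling cells were deeper, with medians of 34133 against 18802 UMIs in tumor cells and 12487 against 6086 UMIs in macrophages. Scaling by total UMIs moved the median of all genes in tumor cells from 0.00 to -0.17 and the calls from 38.4% higher and 36.4% lower to 30.7% and 46.9%. Under that scaling the 8 members called in tumor cells kept their signs, and Sesn2 no longer passed (0.23). In macrophages that scaling moved the median from 0.00 to 0.08 and the calls from 25.2% higher and 25.3% lower to 31.9% and 18.3%.

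**Figure D5:**
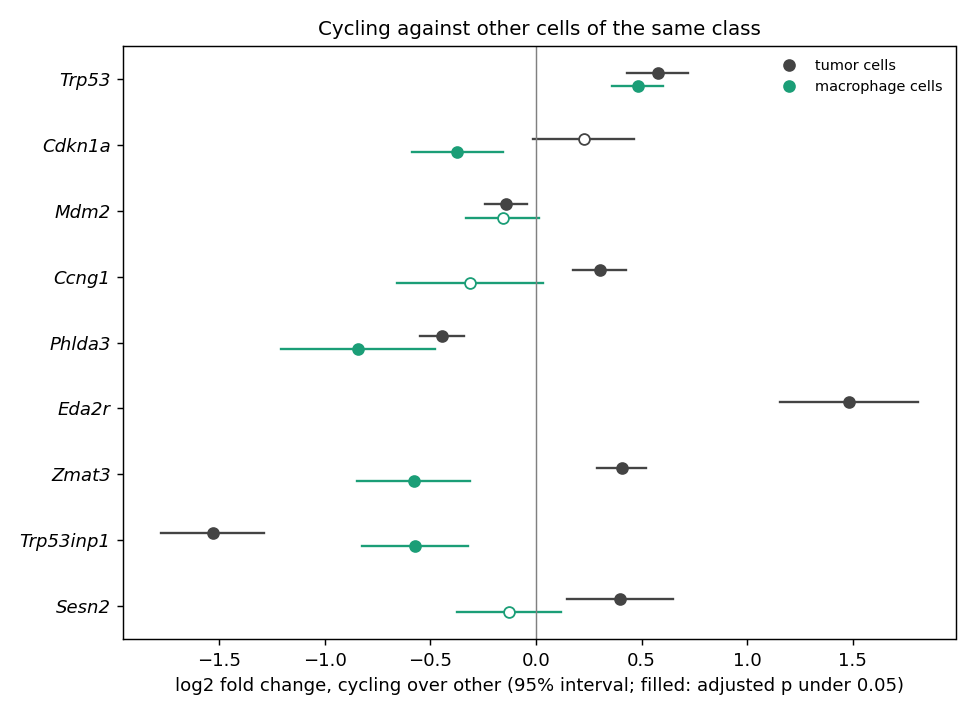
Log2 fold change of each member in cycling over other cells, in tumor cells and macrophages (edgeR with a library term, 7 libraries, bars are 95% intervals, filled points passed an adjusted p of 0.05). Trp53 is right of 0 in both classes, Trp53inp1 and Phlda3 are left of 0 in both (Phlda3 in macrophages is at 0.21 in the 3 larger libraries alone), and Zmat3 is at 0.41 in tumor cells and -0.58 in macrophages.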

How the data were processed

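Single cells of 7 tumors were captured with a 10x Genomics 3' kit after papain dissociation, with 10000 cells loaded per tumor. The deposited values are whole UMI counts per gene and cell, which the authors made with Cell Ranger (8.0.0 in the file headers) and mm10. No normalized values were used. The cell filter kept values within 3 median absolute deviations, per library, for log10 UMIs, log10 genes and the mitochondrial and ribosomal shares. Classes were gated on lists of 21 tumor, 15 macrophage, 17 T/NK and 15 endothelial markers. Scrublet marked doublets, but marked 0.0274% of cells in irradiated 1, where it did not work. In irradiated 3 it marked only 0.106% of cells. Counts were summed per class and library and tested with edgeR 4.0.16 (TMM, quasi-likelihood, Benjamini-Hochberg threshold 0.05), over all genes that passed its filter on low counts. Tumor-host and cycling fits had a library term, irradiated-control fits had none, and irradiated-control sums needed 20 cells. CPM divides by the total UMIs of the sum. On simulated counts the irradiated-control fits recovered 85.5% (tumor), 86% (macrophage), 92.5% (T/NK) and 82% (endothelial) of 200 genes given a log2 change of 2. The interaction of tumor with macrophage cells recovered 69%. False calls were 2.84 to 5.75% of calls in the irradiated-control fits and 7.38% in that interaction. They were 11.5% for tumor against macrophage cells, and 7.58% (tumor) and 6.31% (macrophage) in the cycling fits. Smaller changes, such as those of the members between irradiated and control tumors, were not simulated. The named members are those given by symbol. Of the other targets, the rule names the 4 with the largest mean difference in each direction among those that passed with 1 sign in all 3 tumor-host comparisons, the p53 family, Mdm4 and Cdkn2a. Targets that parted the libraries were named after their values were seen. Promoter windows came from RefSeq and were searched for the p53 half-site. The members and lists were chosen with earlier results of these data known. Replicates were separate tumors of 1 line, so p-values measure the spread between these tumors. Replicate numbers were not treated as pairs. Alternatives were DESeq2 1.42.0, total-UMI scaling, no filter, stricter gates, all deposited cells, doublets or cycling cells removed, a replicate block and single libraries left out. Subsets by cell number per library, and leaving out irradiated 1 and control 1 together, were added after seeing the data.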

Additional observations from a re-analysis of the deposited data

Results flagged for a closer look

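In 3 of 35 groups of 4 irradiated libraries, 1 per member and class, the lowest library stood apart by Dixon's test, where chance gives about 1 group in 20. All 3 were the library labelled irradiated 1. Its endothelial Cdkn1a was 93.8 CPM where the others had 213.9 to 234.4 CPM, its endothelial Phlda3 was 65.4 CPM against 122.2 to 132.4 CPM, and its macrophage Sesn2 was 5.63 CPM against 11.2 to 12.1 CPM. In each case the value lay close to those of controls 2 and 3. The 35 groups draw on the same 4 libraries and are not independent, so 1 in 20 is no yardstick for these 3. These 3 values belong to the partings of libraries already described above.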

How the results depend on the processing

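Over all alternatives, 381 values for counts of calls stayed within 1.5 times the reported count and 21 moved. Of the values for single members, 1142 kept direction and side of the threshold, 37 lost a call, 22 gained one and 9 reversed. For genes called between irradiated and control, DESeq2 gave 1 in macrophages and 1 in each of the interactions with T/NK and endothelial cells. With no filter there were 48 in T/NK and 42 in endothelial cells, and 90, 41 and 66 in the interactions with macrophages, T/NK and endothelial cells. Leaving out 1 library gave 0 to 1 gene in T/NK cells, in endothelial cells (1 without control 2 in both) and in the endothelial interaction (1 without irradiated 3). Leaving out irradiated 1 and control 1 together gave 1 gene in tumor cells, 154 in macrophages with 6 members, 11 in T/NK cells, 20 in the macrophage interaction with 2 members, and 6 in the T/NK interaction.

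Without the library term (no replicate block), cycling macrophages had 3907 genes and 1 member called, and the larger libraries alone gave 1 member. With the replicate number as a block, irradiated-control comparisons called 0 genes in each class. Same-numbered libraries correlated at -0.43 to 0.11 in tumor, macrophage and T/NK cells. Replicate 1, the libraries labelled irradiated 1 and control 1, had the lowest value in each class (-0.43, -0.40 and -0.35). With the division crossing these libraries, the values cannot decide whether the numbers mark pairs. The 9 reversals came from library subsets. Zmat3 against macrophages was -0.058 in the smaller libraries, and in the larger ones Ccng1, Phlda3, Zmat3 and Sesn2 were 0.079, 0.40, 0.025 and 0.43 against endothelial cells. Cycling Cdkn1a was -0.032 in tumor cells of the smaller libraries, and Mdm2, Ccng1 and Phlda3 were 0.10, 0.19 and 0.21 in cycling macrophages of the larger ones. The cause was not tested. Few endothelial cells (442) and low counts of Sesn2 and Eda2r limit those values.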

Other observations

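Pericyte-like cells, 176 in all by a gate of at least 3 markers set after seeing the data, held Cdkn1a at 122.2, 40.1 and 151.3 CPM in controls 1 to 3 and 41.4, 171.5, 94.0 and 97.1 CPM in irradiated 1 to 4. Control 3 thus lay among the smaller libraries here, unlike in macrophages. Phlda3 was at 64.8 to 224.8 CPM in these cells, with irradiated 4 lowest, so neither gene parted the libraries cleanly.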
